A study of Mus musculus with 50 samples.

Results

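The 10 genes described here are ones commonly read as markers of activated fibroblasts, the connective tissue cells that multiply and lay down matrix in wounded or inflamed gut. They were taken by gene symbol (Pdgfra, Pdgfrb, Thy1, Pdpn, Fap, Fn1, Tnc, Postn, Sparc and Grem1) and are 10 of the 56691 genes in the deposited table. The choice was made with earlier results of these data known. All 10 passed the filter on low counts. Poly(A) RNA of colon (distal colon in the series text) was sequenced from 50 mice with the strain label BALBC, in 1 batch, with 1 library per mouse and 10 mice a group. The groups were sham mice, mice given the colitis-provoking hapten TNBS (trinitrobenzene sulfonic acid) and vehicle, and mice given TNBS and the compound A1007 at 10, 30 or 90 mpk, the dose unit of the labels. TNBS was therefore shared by the vehicle group and all 3 dose groups. The series title describes A1007 (YUQ-A1007 in the series text) as an AhR agonist, that is, a compound that activates the ligand-bound transcription factor aryl hydrocarbon receptor. The comparisons ask how colitis and the compound changed the genes of connective tissue, since the title names fibrosis among the processes regulated. The labels used here name neither the dosing schedule nor the day of collection.

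Fibroblasts of the gut wall sense growth factors of the PDGF family, anchor the epithelium and supply the BMP antagonists and WNT ligands that shape the crypt. In wounds they build a provisional matrix of fibronectin, tenascin and other proteins that bind cells and collagen. None of the 10 genes belongs to fibroblasts alone. Pdgfrb is also a gene of pericytes, Thy1 of T cells and neurons, Pdpn of lymphatic endothelium and mesothelium, Fn1 of macrophages and Sparc of endothelium. The libraries are of whole tissue, in which a change in the number of cells of a type and a change in RNA per cell cannot be told apart.

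Library totals ran from 14373337 to 20446967 counts. Genes of the exocrine pancreas, which lies beside the colon, exceeded 100 CPM (counts scaled to library size) in 8 libraries, namely vehicle replicates 2, 5, 6 and 9, A1007 10 mpk replicate 7, A1007 30 mpk replicate 2 and A1007 90 mpk replicates 2 and 4. Xist, an RNA of the inactive X chromosome, was below 10 CPM in A1007 10 mpk replicate 6 and A1007 30 mpk replicate 1. For the 10 genes, changes of call or sign without these 8 or these 2 libraries are given with both values. Between 90 and 10 mpk they are given as counts of genes only. The related lists and the cell markers were not tested without these libraries. Vehicle and 10 mpk mice varied more than the others. Chi-square tests between libraries of a group, divided by their degrees of freedom, had medians of 86.5 in vehicle and 69.2 in 10 mpk mice and of at most 24.2 in the other 3 groups. Comparisons among TNBS groups shared 1 estimate of the spread, so the standard errors can be too small between vehicle and 10 mpk and too large between 30 and 90 mpk.

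RefSeq promoter windows (build GRCm38.p6, from 250 bases before to 50 bases after the annotated start) were held for 6 of the 10 genes, Grem1, Postn, Tnc, Pdpn, Pdgfra and Sparc, in 8 windows. They are shown for Tnc, Sparc, Postn and Grem1 because these secreted products differ in how they moved: Tnc, Sparc and Grem1 were among the genes with the larger rises in colitis and fell at 30 and 90 mpk, and Postn rose less and was not called at any dose. The windows were read 5′ to 3′ on the strand of the gene, and capitals mark every match, on either strand, to 1 of 5 motifs, GCGTG (the core of the AhR response element), TGANTCA (AP-1), GGAATG (TEAD), CAGACA (an extended SMAD box) and TATAAA (the TATA box).
Tnc, chr4:64046887-64047186, minus strand: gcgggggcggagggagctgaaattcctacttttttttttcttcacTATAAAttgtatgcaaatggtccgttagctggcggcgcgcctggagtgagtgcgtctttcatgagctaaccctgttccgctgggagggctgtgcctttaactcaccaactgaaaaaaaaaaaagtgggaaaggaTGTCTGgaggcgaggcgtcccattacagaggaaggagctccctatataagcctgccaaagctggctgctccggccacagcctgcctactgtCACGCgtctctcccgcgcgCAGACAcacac
Sparc, chr11:55420031-55420330, minus strand: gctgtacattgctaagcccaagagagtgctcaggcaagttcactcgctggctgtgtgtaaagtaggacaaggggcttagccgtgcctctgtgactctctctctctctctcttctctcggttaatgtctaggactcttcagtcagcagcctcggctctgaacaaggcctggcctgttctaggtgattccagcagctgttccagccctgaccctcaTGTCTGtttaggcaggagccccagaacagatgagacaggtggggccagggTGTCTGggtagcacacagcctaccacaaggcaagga
Postn, chr3:54360857-54361156, plus strand: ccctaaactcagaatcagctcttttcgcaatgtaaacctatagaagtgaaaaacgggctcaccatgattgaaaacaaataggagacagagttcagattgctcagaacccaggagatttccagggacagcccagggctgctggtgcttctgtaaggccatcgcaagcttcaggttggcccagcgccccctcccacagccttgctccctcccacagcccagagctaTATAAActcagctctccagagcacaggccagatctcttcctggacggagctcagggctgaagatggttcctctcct
Grem1, chr2:113758599-113758898, minus strand: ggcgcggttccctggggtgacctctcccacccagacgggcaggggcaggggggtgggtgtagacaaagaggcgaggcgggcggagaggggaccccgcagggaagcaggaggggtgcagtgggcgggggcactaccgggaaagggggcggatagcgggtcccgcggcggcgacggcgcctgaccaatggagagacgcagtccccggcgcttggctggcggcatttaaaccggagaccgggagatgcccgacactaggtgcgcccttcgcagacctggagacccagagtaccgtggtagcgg
The Tnc window shown held 1 match to the AhR core, 2 matches to CAGACA and 1 to TATAAA, and a second Tnc window, from another annotated start, held no match to the AhR core. Among the 6 genes the AhR core was matched in Tnc alone, in 1 of the 8 windows, and 32.4% of all 32851 promoter windows held a match. CAGACA was matched in Tnc and Sparc, in 3 of the 8 windows (21.0% of all windows). TATAAA was matched in Tnc and Postn, also in 3 of the 8 (13.6%). A second Postn window, from another annotated start, held no match to any of the 5 motifs. No window of the 6 genes matched TGANTCA or GGAATG, which 7.81% and 14.7% of all windows held. These are matches of letters only.

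In TNBS vehicle mice, 9 of the 10 genes were higher than in sham mice and 0 were lower, where 18.2% of the 17928 genes tested were called higher (edgeR, adjusted p under 0.05). The largest rise was that of Grem1, a secreted antagonist of BMP signals, by 7.56-fold, followed by Tnc (tenascin C) by 5.34-fold, Fn1 (fibronectin) by 4.66-fold, Pdpn (podoplanin) by 4.63-fold and Sparc by 3.86-fold. Fap, a membrane protease used as a marker of activated fibroblasts in tumours, was the gene not called, at 1.10-fold. The 10 log2 fold changes ran from 0.14 to 2.92 with a median of 1.53, and the median of all genes tested was 0.02. For 7 of the 10 genes every vehicle mouse lay above every sham mouse in FPKM, the deposited unit (fragments normalised to exon length and to sequencing depth), which was so for 2.99% of the genes tested. The count of 9 was the same in each of the alternatives run, including those without the 8 libraries.

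**Figure D1:**
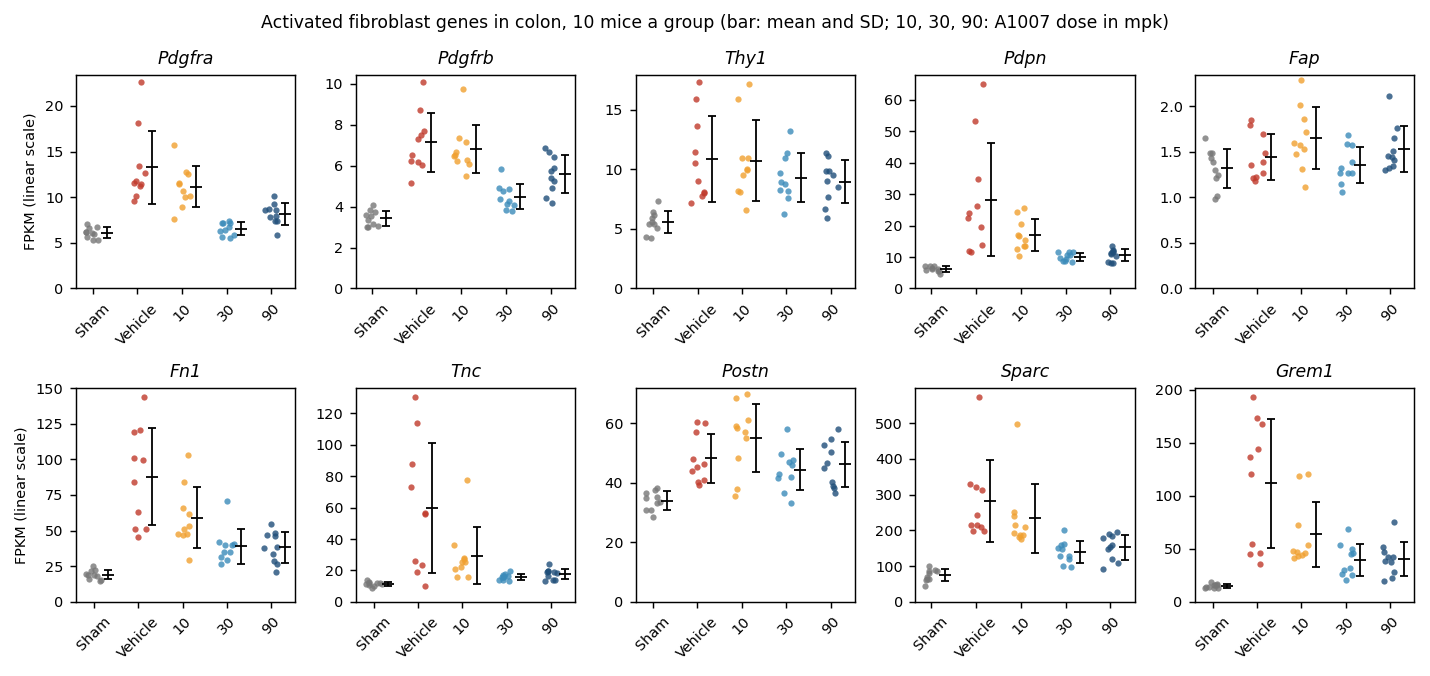
FPKM (linear axis from 0) of each gene in each mouse, 10 mice a group, with the mean and SD beside the points. All genes but Fap stood higher in vehicle than in sham mice, and most fell back at 30 and 90 mpk without reaching the sham mean.

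Among the receptors, Pdgfra, the alpha receptor of PDGF and a mark of most gut fibroblasts (ENSMUSG00000029231, GRCm39 chr5:75312953-75358876), had a lowest, median and highest level of 5.26, 6.13 and 7.02 FPKM in sham mice and of 9.64, 11.7 and 22.6 FPKM in vehicle mice. It had 7.58, 11.1 and 15.7 FPKM at 10 mpk, 5.58, 6.54 and 7.44 at 30 mpk, and 5.91, 8.24 and 10.2 at 90 mpk. The 30 mpk mice overlapped the sham mice, with 4 of 10 above the highest sham mouse, and all lay below every vehicle mouse, the only case among the 10 genes at that dose. The rise in colitis was 1.12 on the log2 scale (SE 0.12, edgeR adjusted p = 1.48e-06). The fall against vehicle was 0.99 at 30 mpk (SE 0.12, edgeR adjusted p = 4.92e-07) and 0.73 at 90 mpk (SE 0.12, edgeR adjusted p = 5.72e-05).

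Pdgfrb, the beta receptor of PDGF, carried by pericytes as well as fibroblasts (ENSMUSG00000024620, chromosome 18), had 2.99, 3.44 and 4.07 FPKM in sham mice as lowest, median and highest, and 5.15, 6.90 and 10.1 FPKM in vehicle mice. At 10, 30 and 90 mpk its medians were 6.50, 4.33 and 5.57 FPKM, with ranges of 5.50 to 9.75, 3.80 to 5.81 and 4.17 to 6.87. The sham and vehicle mice did not overlap. All 90 mpk mice lay above all sham mice, and 3 of 10 lay below all vehicle mice. It rose by 1.07 in colitis (SE 0.10, edgeR adjusted p = 2.77e-07). Against vehicle it was lower by 0.65 at 30 mpk (log2 fold change -0.65, SE 0.10, edgeR adjusted p = 2.55e-05) and its log2 fold change at 90 mpk was -0.39 (SE 0.10, edgeR adjusted p = 0.00714). The call at 90 mpk was lost without the 8 libraries (-0.25, adjusted p = 0.206) and with sample quality weights in limma (adjusted p = 0.0575).

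Of the surface proteins, Pdpn, the mucin-type ligand of the platelet receptor CLEC-2 (ENSMUSG00000028583, GRCm39 chr4:142994001-143026134), changed most. Its lowest, median and highest levels were 4.57, 6.30 and 7.17 FPKM in sham mice and 11.5, 23.1 and 65.0 FPKM in vehicle mice, and all vehicle mice lay above all sham mice. It had 10.4 to 25.5 FPKM at 10 mpk, 8.41 to 11.6 at 30 mpk and 8 to 13.4 at 90 mpk. The vehicle mice spread over 5.67-fold and the 30 mpk mice over 1.38-fold. Pdpn rose by 2.21 in colitis (SE 0.30, edgeR adjusted p = 1.76e-05) and by 1.42 without the 8 libraries (adjusted p = 2.47e-06). At 30 and 90 mpk its log2 fold changes against vehicle were -1.48 and -1.47 (edgeR adjusted p = 2.23e-05 and 4.73e-05), -0.71 and -0.74 without the 8 libraries (adjusted p = 0.0036 and 0.0211), and -0.88 and -0.86 with sample quality weights.

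Thy1, a surface glycoprotein of fibroblasts, T cells and neurons (ENSMUSG00000032011, GRCm39 chr9:43954681-43959876), had 4.22 to 7.33 FPKM in sham mice and 7.15 to 17.3 in vehicle mice, with medians of 5.53 and 9.75. Its medians were 9.97, 8.82 and 9.29 FPKM at 10, 30 and 90 mpk. It rose in colitis by 0.98 (SE 0.17, edgeR adjusted p = 0.000151), and 9 of 10 vehicle mice lay above all sham mice. Its differences from vehicle were -0.04 (interval -0.38 to 0.30), -0.21 (-0.55 to 0.13) and -0.32 (-0.67 to 0.02) at 10, 30 and 90 mpk, and none was called. Without the 8 libraries the difference at 30 mpk was 0.09.

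Fap (ENSMUSG00000000392, GRCm39 chr2:62331287-62404419) had the lowest level of the 10 genes, 1.32 ± 0.21 FPKM in sham and 1.44 ± 0.25 FPKM in vehicle mice (SD, n = 10). Its means were 1.65 ± 0.34, 1.36 ± 0.20 and 1.53 ± 0.25 FPKM at 10, 30 and 90 mpk. The groups overlapped throughout. The difference between vehicle and sham was 0.14 on the log2 scale (interval -0.09 to 0.36, edgeR adjusted p = 0.341) and turned to -0.0024 with quantile normalization. At 10 mpk Fap was 0.33 above sham (edgeR adjusted p = 0.0459), a call lost in 10 of the other settings and without any one of the 10 mpk replicates 1, 3, 6, 7, 8 and 9. Without the 8 libraries it was 0.32 (edgeR adjusted p = 0.0698), and without the 2 libraries low in Xist 0.33 (edgeR adjusted p = 0.0579).

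Among the matrix proteins, Fn1, the scaffold of the provisional matrix (ENSMUSG00000026193, GRCm39 chr1:71624679-71692359), had 14.7, 18.9 and 25.3 FPKM in sham mice and 45.7, 92.0 and 143.7 FPKM in vehicle mice as lowest, median and highest. At 10, 30 and 90 mpk its medians were 52.1, 37.6 and 38.0 FPKM. All vehicle, 10 mpk and 30 mpk mice lay above all sham mice, and 9 of 10 mice did so at 90 mpk. It rose by 2.22 in colitis (SE 0.21, edgeR adjusted p = 2.33e-07). Against vehicle its log2 fold changes were -1.15 at 30 mpk and -1.25 at 90 mpk (SE 0.22 each, edgeR adjusted p = 0.000148 and 0.000106).

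Tnc, a large glycoprotein that reappears in wounds (ENSMUSG00000028364, GRCm39 chr4:63878022-63965252), was the most variable of the 10 genes in colitis, with an SD of 69.6% of the mean in vehicle mice. Its levels in the vehicle mice ran from 10.0 to 130.3 FPKM with a median of 56.3, against 8.48 to 13.8 FPKM in sham mice. Vehicle replicate 6 had the 10.0 FPKM, within the sham range, and the next lowest vehicle mouse had 18.9 FPKM. The levels were 15.8 to 77.9 FPKM at 10 mpk, 13.5 to 19.6 at 30 mpk and 13.1 to 24.2 at 90 mpk. It rose by 2.42 in colitis (SE 0.38, edgeR adjusted p = 8.8e-05). Its log2 fold changes against vehicle were -1.89 at 30 mpk (SE 0.32, edgeR adjusted p = 4.15e-05) and -1.80 at 90 mpk (SE 0.31, edgeR adjusted p = 0.000125), the largest falls of the 10 genes at both doses. With sample quality weights they were -1.24 and -1.15.

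Postn (periostin, a matricellular protein, ENSMUSG00000027750, GRCm39 chr3:54268530-54298458) rose least of the 9 genes called. It had 28.6, 34.2 and 38.1 FPKM in sham mice and 39.1, 45.8 and 60.4 in vehicle mice, which did not overlap. The rise was 0.51 on the log2 scale (SE 0.08, edgeR adjusted p = 6.88e-05). Its medians at 10, 30 and 90 mpk were 57.6, 44.4 and 45.8 FPKM, and the differences from vehicle were 0.19 (interval -0.03 to 0.41), -0.09 (-0.31 to 0.13) and -0.09 (-0.31 to 0.13). None was called. Postn and Fap were the 2 genes whose highest mean was at 10 mpk.

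Sparc, a collagen-binding glycoprotein (osteonectin, ENSMUSG00000018593, GRCm39 chr11:55285326-55314009), had the highest level of the 10 genes per length of exon. It had 45.2, 74.9 and 101.0 FPKM in sham mice and 197.6, 228.6 and 572.1 FPKM in vehicle mice. At 10 mpk it had 176.8 to 497.7 FPKM, and its medians were 138.2 and 156.4 FPKM at 30 and 90 mpk. At 90 mpk every mouse lay below every vehicle mouse, the only case of the 10 at that dose, and at 30 mpk 9 of 10 mice did. The rise in colitis was 1.95 (SE 0.21, edgeR adjusted p = 1.48e-06). The log2 fold changes against vehicle were -1.02 at 30 mpk (SE 0.20, edgeR adjusted p = 0.000235) and -0.95 at 90 mpk (SE 0.20, edgeR adjusted p = 0.000752), and -0.67 and -0.66 without the 8 libraries, the latter not called (adjusted p = 0.0554).

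Grem1 (ENSMUSG00000074934, GRCm39 chr2:113576509-113588991), made by fibroblasts and muscle cells below the crypts in the mouse, had 12.8, 14.8 and 18.3 FPKM in sham mice and 35.6, 128.7 and 192.9 FPKM in vehicle mice. Vehicle replicates 1, 3, 6 and 10 had 35.6 to 54.2 FPKM and the other 6 mice 120.3 to 192.9 FPKM, with no mouse between. Its medians at 10, 30 and 90 mpk were 47.4, 38.5 and 40.6 FPKM, and every mouse of every dose lay above every sham mouse. The rise in colitis was 2.92 (SE 0.30, edgeR adjusted p = 9.16e-07). The log2 fold changes against vehicle were -1.47 at 30 mpk (SE 0.30, edgeR adjusted p = 0.000424) and -1.51 at 90 mpk (SE 0.30, edgeR adjusted p = 0.000516).

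Against TNBS vehicle, 7 of the 10 genes fell at 30 mpk and 7 at 90 mpk, and 0 rose at either dose. They were Pdgfra, Pdgfrb, Pdpn, Fn1, Tnc, Sparc and Grem1 at both doses. The median log2 fold change of the 10 genes was -1.0 at 30 mpk and -0.84 at 90 mpk. Of all genes tested, 17.9% were called lower at 30 mpk and 11.1% at 90 mpk, and the median of all genes was -0.02 and -0.01. The ranges in FPKM did not overlap for Pdgfra at 30 mpk and Sparc at 90 mpk, where 0.563% and 0.312% of all genes lay wholly below vehicle. Without the 8 libraries, the 7 genes called at 30 mpk were the same 7 and 5 of the 7 were called at 90 mpk, while the number of all genes called at 90 mpk went from 3266 to 681. The 3 dose groups were compared with the same vehicle mice.

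**Figure D2:**
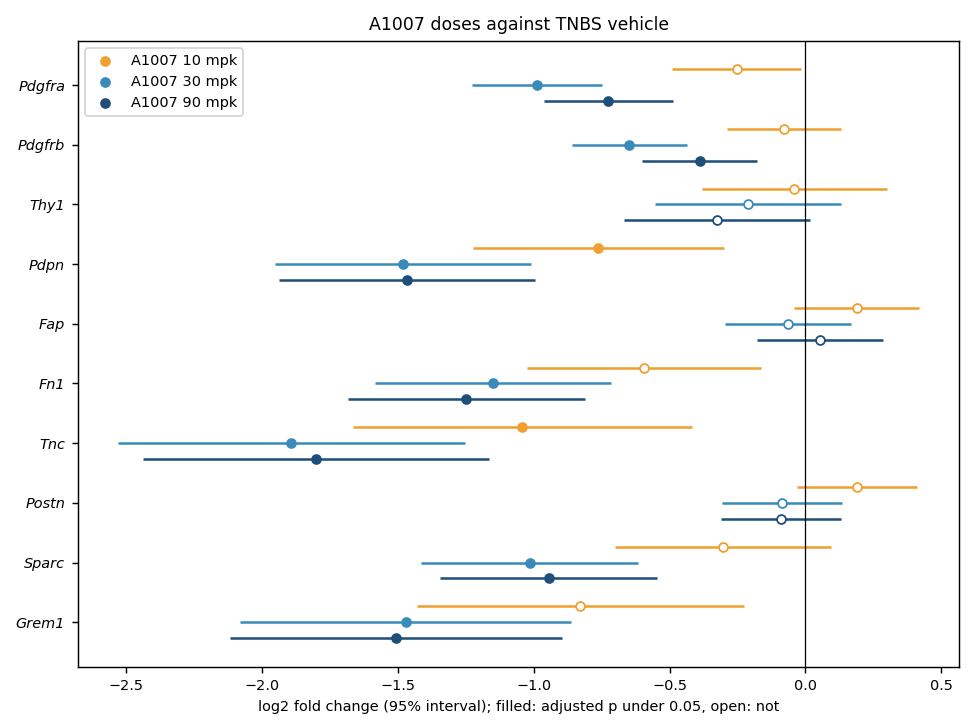
Log2 fold change of each gene at each dose of A1007 against TNBS vehicle with its 95% interval, filled where the adjusted p was under 0.05. The 30 and 90 mpk intervals lay below 0 for 7 genes, and the 10 mpk points lay nearer to 0 in all of those 7.

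At 10 mpk, 2 of the 10 genes were called lower than in vehicle mice, Pdpn at a log2 fold change of -0.76 (SE 0.23, edgeR adjusted p = 0.0406) and Tnc at -1.04 (SE 0.31, edgeR adjusted p = 0.039), where 2.91% of the genes tested were called lower. Neither call was stable. The count of 2 became 0 in 10 of the alternatives. These included the fit on only the 2 groups compared and the fits without the 8 or the 2 libraries. The count became 3 with DESeq2 and 4 with all 50 mice in 1 fit. All genes called moved as well, from 1030 to 4 with only the 2 groups and 33 without the 8 libraries. They were 580 without the 2 libraries, 1448 with DESeq2 and 1749 with all 50 mice. The count of 2 moved to 0, 1 or 4 when any 10 mpk library or vehicle replicate 2, 5, 6, 7 or 9 was left out. Without the 8 libraries the log2 fold change was 0.01 for Pdpn and -0.46 for Tnc. Without the 2 libraries it was -0.76 for Pdpn and -0.97 for Tnc (edgeR adjusted p = 0.0686 and 0.0799). Grem1 and Fn1 were at -0.83 and -0.59 (edgeR adjusted p = 0.0851 for both), and the intervals of the remaining 6 genes ran from -0.70 to 0.42. Among those, only the interval of Pdgfra, -0.49 to -0.02, left out 0 (log2 fold change -0.25, edgeR adjusted p = 0.188).

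Between the doses, 3 genes were lower at 30 than at 10 mpk, where 1.55% of all genes were, and 0 were higher. Pdgfra was lower by 0.74 (log2 fold change -0.74, SE 0.12, edgeR adjusted p = 0.000689), with no overlap between the groups, as for 0.0892% of all genes. Pdgfrb was at -0.57 (SE 0.10, edgeR adjusted p = 0.00239). Sparc was at -0.71 (SE 0.20, edgeR adjusted p = 0.0471), and its call was lost without a filter, with the filter taken within the mice fitted (adjusted p = 0.0508) and on leaving out any of 12 libraries (10 mpk replicates 1, 3, 4, 5 and 8, and 30 mpk replicates 2, 3, 4, 5, 7, 8 and 9). Between 90 and 30 mpk, 0 of the 10 genes were called (edgeR and DESeq2; edgeR called 0.368% of all genes in either direction). At an unadjusted p under 0.05 there were 2, Pdgfra and Pdgfrb, both higher at 90 mpk, by 0.26 (interval 0.03 to 0.50) and 0.26 (0.05 to 0.47). Between 90 and 10 mpk, 0 were called as well (edgeR; DESeq2 called 1), where 0.0335% of all genes were higher and 0.0669% lower, and all 10 log2 fold changes were negative, from -0.76 to -0.13, with 8 under an unadjusted p of 0.05.

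Against sham mice, all 10 genes were higher at 10 mpk, 8 at 30 mpk and 9 at 90 mpk, where 21.3%, 30.3% and 23.4% of all genes tested were. The median log2 fold changes of the 10 genes were 1.18, 0.61 and 0.66 at the 3 doses and 1.53 in vehicle mice. All 4 comparisons share the sham mice. Pdgfra was 0.12 above sham at 30 mpk (interval -0.01 to 0.25, edgeR adjusted p = 0.114) and was called at 90 mpk (0.39, edgeR adjusted p = 0.000265). Fap was not called at either dose. Thy1 was 0.76 and 0.65 above sham at 30 and 90 mpk, against 0.98 in vehicle mice. Postn was 0.41 above sham at both doses, against 0.51. Grem1 stayed highest over sham of the 10 genes, at 1.43 and 1.41, and Fn1 was at 1.05 and 0.96. The calls of Tnc at 30 and 90 mpk (0.51 and 0.61) were lost with all 50 mice in 1 fit (adjusted p = 0.115 and 0.0994). The sham and dose groups did not overlap for 7 genes at 10 mpk (2.12% of all genes) and for 3 genes at 30 mpk (5.08%) and at 90 mpk (1.96%). Those 3 were Pdpn, Fn1 and Grem1 at 30 mpk and Pdgfrb, Pdpn and Grem1 at 90 mpk.

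**Figure D3:**
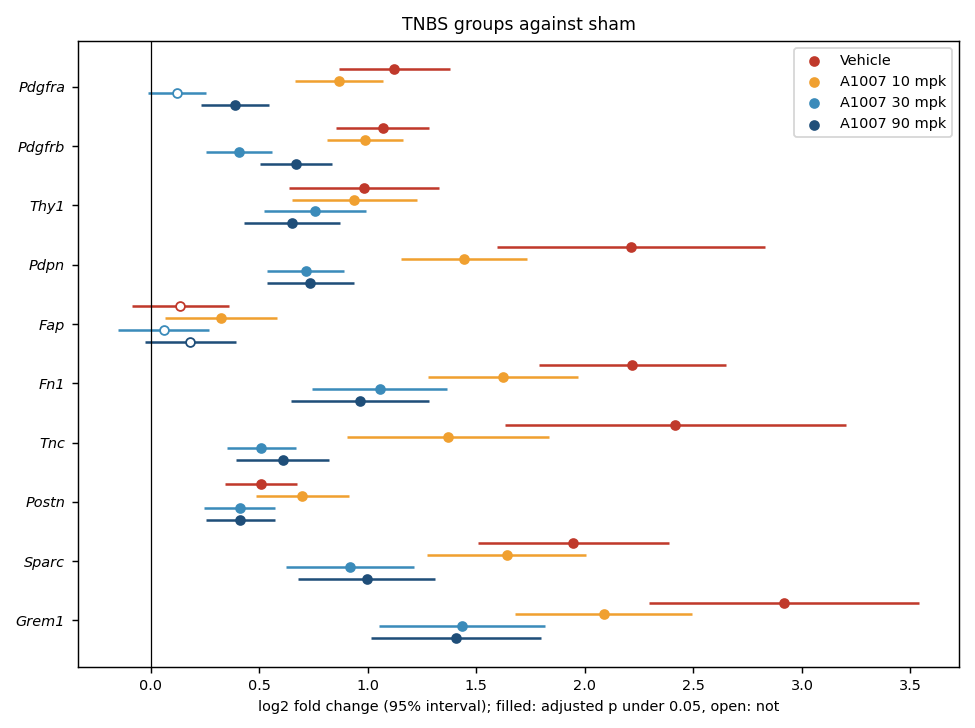
Log2 fold change of each gene in vehicle and dosed TNBS mice against sham with its 95% interval, filled where the adjusted p was under 0.05. Grem1 stood highest in all 4 groups, and Fap stood nearest to 0 in all 4.

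The order of the group means was sham, 30, 90, 10 mpk and vehicle, from low to high, for Pdgfra, Pdgfrb, Pdpn, Tnc, Sparc and Grem1. For Thy1 and Fn1 the 30 and 90 mpk means changed places. Postn followed the first order except that 10 mpk lay above vehicle, and Fap ran sham, 30 mpk, vehicle, 90 and 10 mpk. The neighbours 30 and 90 mpk were not called apart for any of the 10 genes, and 10 mpk and vehicle were for Pdpn and Tnc, with the instability given above.

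Single mice were high for many of the 10 genes together. Among vehicle mice, replicate 9 was highest for 5 genes and replicate 5 for 4, and replicate 5 was among the top 3 for 9. At 10 mpk, replicate 1 was among the top 3 for all 10 genes and highest for 6, and replicate 5 was highest for 3. The number of the 10 genes above the highest sham mouse ran from 7 to 10 in vehicle mice (median 9), 8 to 10 at 10 mpk, 5 to 9 at 30 mpk (median 8) and 5 to 10 at 90 mpk. Vehicle replicates 5 and 9 also held the largest sums of neutrophil markers, 2388.9 and 4222.6 CPM, against 27.4 CPM in replicate 1, and both are among the libraries with pancreatic reads. For the 10 genes, values without the libraries with pancreatic reads are given for the calls and signs that changed. The part of neutrophil content was not tested.

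**Figure D4:**
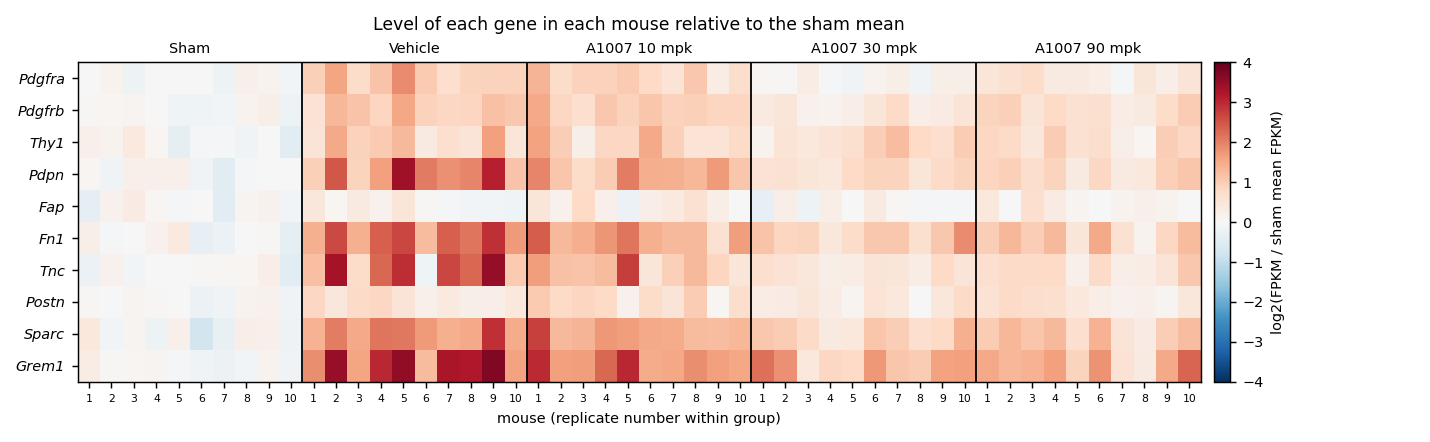
Level of each gene in each mouse as log2 of FPKM over the sham mean (red above, blue below), mice in replicate order within groups. Vehicle replicates 2, 5 and 9 and 10 mpk replicate 1 form red columns across most genes, and the Fap row stays pale.

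Genes of related lists were read beside the 10. Of all genes tested, 18.2% were called higher and 13.5% lower in colitis. Against vehicle, 13.5% were higher and 17.9% lower at 30 mpk, and 7.12% higher and 11.1% lower at 90 mpk. Against sham, 21.3%, 30.3% and 23.4% were higher at 10, 30 and 90 mpk. The counts of list and marker genes stand beside these shares, and no list was tested as a set. Of 11 genes found in most fibroblasts, 10 rose in colitis (median log2 fold change 1.21), 6 fell and 1 rose at 30 mpk and 7 fell and 1 rose at 90 mpk against vehicle. The collagen gene Col1a1 had 19.3 FPKM in sham, 137.4 in vehicle, 48.3 at 30 mpk and 53.4 at 90 mpk, with log2 fold changes of 2.86 in colitis and -1.50 and -1.42 at the doses. Col1a2 and Col3a1 rose by 2.19 and 2.34. Dpt, a small matrix protein of resting fibroblasts, was not called in colitis (0.05, edgeR adjusted p = 0.8) and was the gene that rose at both doses (0.46 each; named after its values were seen).

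The list of inflammatory fibroblast genes held 13 symbols, of which 12 were in the table and 11 were tested. All 11 rose in colitis (median 1.61), and 9 fell at 30 mpk and 9 at 90 mpk. Cxcl5, a neutrophil attractant, rose by 8.50 (edgeR adjusted p = 2.22e-05) and fell by 5.26 at 30 mpk (edgeR adjusted p = 0.000225). Tnfrsf11b (osteoprotegerin, a decoy receptor) rose by 1.59 and Cxcl12, a chemokine of stromal cells, by 0.79. Several of these genes are also made by epithelium and leukocytes.

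Of 10 myofibroblast and smooth muscle genes, 0 were called in vehicle mice against sham (edgeR; median 0.10). In the dosed TNBS mice against sham, 7, 7 and 8 were higher at 10, 30 and 90 mpk, and 1 was lower at 30 mpk. Their medians against sham were 0.46, 0.53 and 0.52. Against vehicle, 4 rose at 30 mpk and 3 at 90 mpk. Acta2, the smooth muscle actin used to mark myofibroblasts, was at 0.27 in colitis (edgeR adjusted p = 0.102), Actg2 at 0.56 (0.0923) and Myh11 at -0.43 (0.0684). At an unadjusted p under 0.05 there were 4, these 3 and Des (desmin), which was named after its values were seen. The muscle coat of the colon expresses the same genes, and muscle and myofibroblasts cannot be told apart in these libraries.

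Of 9 genes of PDGF ligands and signalling, 3 rose and 1 fell in colitis and 2 fell at each of 30 and 90 mpk. Pdgfb, a ligand of both receptors, rose by 0.63 (edgeR adjusted p = 6.39e-05), and its difference from vehicle was 0.13 at 30 mpk and 0.10 at 90 mpk, not called at either. Plat, the protease that activates PDGF-CC, rose by 2.11 and fell by 1.73 and 1.86. Pdgfrl, a receptor-like protein, rose by 1.83. Of 18 BMP ligands, antagonists and targets, 6 rose and 5 fell in colitis. The antagonists Chrd, Fst and Fstl1 rose by 1.53, 1.55 and 1.67, beside Grem1. The 5 that fell, named here after their values were seen, were the ligands Bmp2 and Bmp3, by 0.53 and 0.45, and Id1, Smad6 and Smad7, targets of BMP signals, by 0.35, 0.38 and 0.39. Against vehicle, 6 of the 18 rose and 5 fell at 30 mpk, and 2 rose and 4 fell at 90 mpk. Chrd, Fst and Fstl1 fell at both doses, by 0.62, 1.72 and 1.03 at 30 mpk. Of the 5 genes that fell in colitis, Bmp2, Id1, Smad6 and Smad7 were called higher at 30 mpk, by 0.57, 1.05, 0.55 and 0.52, and at 90 mpk Smad6 was, by 0.41. Both comparisons share the vehicle mice with that in colitis. Of 20 matricellular genes and matrix receptors, 15 rose and 1 fell in colitis and 12 fell at each of 30 and 90 mpk, where 1 and 2 rose. Fbn1 (fibrillin), the integrin gene Itgb3 and Tgfbi rose by 1.89, 1.01 and 1.47. Of 8 podoplanin partners 6 were tested, and 2 rose and 1 fell in colitis. Msn (moesin), which binds podoplanin to the cytoskeleton, and the hyaluronan receptor Cd44 rose by 1.19 and 1.03, and Ezr (ezrin) fell by 0.34.

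Markers of other cells were read as well, among them cells that carry the same genes. All 10 monocyte and macrophage markers and all 6 neutrophil markers rose in colitis, and 7 and 6 fell at 30 mpk. The summed macrophage markers had 137.6 to 185.4 CPM in sham mice, 295.0 to 730.8 in vehicle mice, 258.3 to 626.2 at 10 mpk, 212.6 to 314.9 at 30 mpk and 207.3 to 352.1 at 90 mpk, so sham and vehicle did not overlap, as for Fn1. Of 6 tested pericyte markers 5 rose in colitis, beside Pdgfrb, and 3 fell at 30 mpk, but their sums overlapped, at 507.3 to 768.6 CPM in sham and 493.2 to 854.5 in vehicle mice. Of 7 blood endothelial markers 5 rose in colitis, and the sums were 172.2 to 312.1 CPM in sham and 293.5 to 505.3 in vehicle mice. At 30 mpk, where Sparc fell, 1 of those 7 fell, and at 90 mpk 0 did (edgeR; 1 changed at an unadjusted p under 0.05). Of the cells that share Pdpn, 1 of 6 lymphatic markers rose in colitis, with sums of 140.3 to 237.6 CPM in sham and 154.9 to 332.0 in vehicle mice. Mesothelial markers, of the outer lining of the colon, rose in 3 of 6 cases and fell in 4 and 5 at 30 and 90 mpk, with sums of 8.33 to 28.5 CPM in sham and 11.9 to 61.4 in vehicle mice, highest in vehicle replicate 5, which was also highest for Pdpn. Of the cells that share Thy1, 0 of 8 T cell markers were called in colitis (edgeR; 1 at an unadjusted p under 0.05; median log2 fold change 0.41), with sums of 15.3 to 45.7 CPM in sham and 16.6 to 74.3 in vehicle mice. Against sham, 4 of 8 were higher at 10 mpk and 7 of 8 at 30 and at 90 mpk. Against vehicle, 0 of 8 were called at 10, 30 or 90 mpk (edgeR), with median log2 fold changes of 0.31, 0.27 and 0.38. Of 8 neuron markers 2 fell in colitis and 0 rose. Of 4 enteric glia markers 1 rose and 1 fell, of 8 epithelial markers 1 fell, and of 5 adipocyte markers 0 were called (edgeR; 0 at an unadjusted p under 0.05). All 7 tested pancreatic acinar markers rose. Their sums had a median of 2.71 CPM in vehicle mice and a highest of 41889.5 CPM in replicate 6, among the libraries with pancreatic reads. No marker was at 0 in all libraries. The part of these cells in the members' values was not tested.

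**Figure D5:**
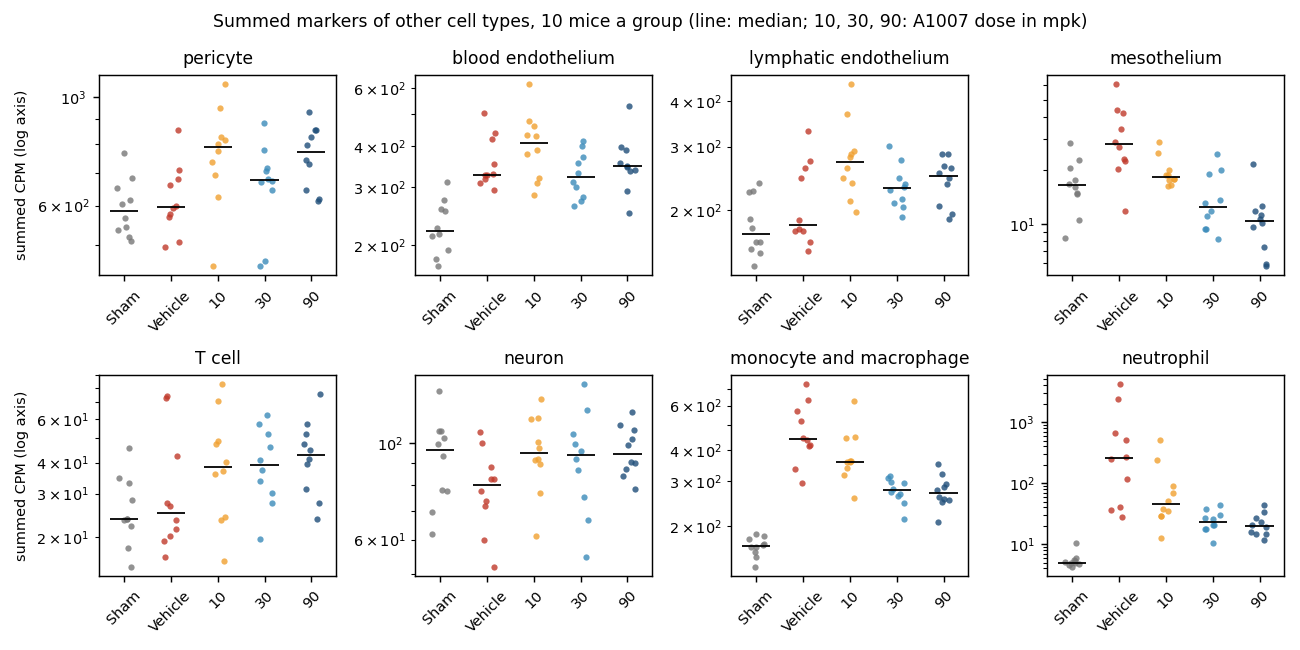
Summed CPM (log axis) of markers of 8 other cell types in each mouse, with the group median as a line. Macrophage and neutrophil sums stood above sham in all vehicle mice, while pericyte, lymphatic, T cell and neuron sums overlapped between sham and vehicle.

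The genes most alike to each member over the 50 mice were found by the root mean square difference of log2(FPKM + 0.1), each set to its sham mean, among 15341 tested genes. Pdgfra was nearest to Lamb1, a laminin chain, at 0.18, and Bicc1 at 0.20, and Pdgfrb to Ifnar2 at 0.18 and Lamb1 at 0.20. Fn1 was nearest to the fibrillar collagen gene Col5a2 at 0.19 and the collagen cross-linking enzyme gene Loxl2 at 0.20, Sparc to Col4a1, of basement membrane collagen, at 0.21 and the collagen chaperone gene Serpinh1 at 0.22. Thy1 was nearest to Tgfb1 at 0.21 and Trpv2 at 0.22, and Pdpn to Fkbp10 at 0.30 and Fxyd5 at 0.32. Grem1 and Tnc, which rose most in colitis, were nearest to Spon2 at 0.39 and Col1a1 at 0.42, and to Basp1 at 0.37 and Ccn4 at 0.41. The difference is not scaled to the size of a gene's own changes. Distances therefore cannot be compared between members that changed much and members that changed little. For Postn and Fap, whose levels changed little, Gask1b and Wwtr1 stood at 0.19 and 0.20, and Lats2 and Phf21a at 0.19 and 0.20.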

How the data were processed

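Counts and FPKM per gene were deposited by the authors for 50 libraries, and all were used. Per the submitters' processing notes, cutadapt 1.9.1, HISAT2 2.2.1, HTSeq 0.6.1 and DESeq2 were used with build GRCm39; no source used here gives their order, settings or strand rule. The deposited FPKM values equalled those recomputed from counts, exon length and library totals within 1% for 99.9966% of values with at least 500 counts. FPKM served for levels and counts for tests.

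Genes were kept by filterByExpr (count minimum 10) over all 50 mice, which replaced a filter within each fit after a first run had been seen. Tests used edgeR 4.0.16 in R 4.3.3 (TMM, robust quasi-likelihood, two-sided), with Benjamini-Hochberg adjustment over the 17928 genes tested and a threshold of 0.05. Comparisons with sham used the 20 mice of the pair, and the others the 40 TNBS mice. Intervals are 95%. Alternatives used limma 3.58.1, DESeq2 1.42.0, other normalizations, filters and samples. Leaving out the 8 libraries with pancreatic reads, the 2 low in Xist, and the filter within fits were chosen after seeing the data. The tests were tried on simulated counts.

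The 10 genes and all lists were chosen with earlier results of these data known. Of each list up to 3 genes, those with the smallest p between vehicle and sham, were to be named, plus the 2 genes most like each member. The labels number the mice as replicates, and the tests set group differences against the spread between these mice. Precision rests on 10 mice a group and their spread, with 14373337 to 20446967 counts per library. Libraries of a group differed by more than counting noise (lowest chi-square per degree of freedom 7.93), so none was counted as a repeat. Genes that overlap others can share reads, since the strand rule is not given.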

Additional observations from a re-analysis of the deposited data

Results flagged for a closer look

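In 5 of the 50 sets of 10 mice (1 gene in 1 group), 1 mouse lay apart from the others by Dixon's test at the 95% level. Chance alone does so in about 1 in 20 sets of normally distributed values. Here FPKM were taken on the linear scale and the 50 sets share mice, so that rate need not hold. All 5 lay on the high side. Sparc had 572.06 FPKM in vehicle replicate 9, where the next mouse had 329.87, and 497.73 FPKM in 10 mpk replicate 1, where the next had 250.72. Pdgfrb had 9.75 FPKM in that same 10 mpk mouse, against 7.33 in the next. Tnc had 77.88 FPKM in 10 mpk replicate 5, against 36.25. Fn1 had 70.87 FPKM in 30 mpk replicate 10, against 42.13.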

How the results depend on the processing

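Of 2350 values for single genes under other settings, 2236 kept direction and call, 77 lost the call, 22 gained it and 15 turned sign. The counts of members called in vehicle against sham (9), at 30 mpk against vehicle (7) and at each dose against sham stayed within 1.5 times in each setting run, and at 90 mpk against vehicle 7 became 5 without the 8 libraries. The cause of the changes below was not tested. In some settings fewer mice or genes entered, which was not separated from the other effects of the setting.

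At 10 mpk against vehicle the count of 2 was 0 with quantile normalization, no filter, quality weights, limma on FPKM with any of the 3 pseudocounts and the replicate block. It was also 0 with only the 2 groups and without the 8 or the 2 libraries, 4 with all 50 mice, and 0 to 4 on leaving out 1 mouse. All genes called went from 1030 to 4 with only the 2 groups, 33 without the 8 libraries and 1749 with all 50 mice. They were 545 to 922 in the others named, leave-one-out fits aside. Between 30 and 10 mpk the count of 3 was 7 with quality weights, 5 with only the 2 groups and 5 without the 8 libraries. It was 2 to 4 on leaving out 1 mouse. Of all 17928 genes tested, 361 were called in the main fit, and 4001, 386 and 1192 in those 3 settings. Without the 8 libraries the members gained were Pdpn (-0.72, against -0.72 with them) and Tnc (-0.91, against -0.85). Their edgeR adjusted p were 0.0068 and 0.0261. Between 90 and 30 mpk the count of 0 was 2 with quality weights and 1 with only the 2 groups. All genes called there went from 66 to 4380 and 3072 of 17928. Between 90 and 10 mpk the count of 0 was 1 with DESeq2, quality weights or all 50 mice, 2 with only the 2 groups and 3 without the 8 libraries. It was 0 to 1 on leaving out 1 mouse (1 without 10 mpk replicate 9). All genes called went from 18 to 180, 106 and 102 with DESeq2, quality weights and all 50 mice. They were 89 with only the 2 groups and 247 without the 8 libraries.

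The 15 sign changes were in uncalled differences except Pdpn at 10 mpk against vehicle, which was called at -0.76. Against sham, Fap was -0.0024 in vehicle and -0.023 at 30 mpk with quantile normalization. At 10 mpk against vehicle, Thy1 was 0.013 with quantile normalization and 0.14 with quality weights, and Pdgfrb 0.020 with quality weights. Without the 8 libraries, Pdgfra, Pdgfrb, Thy1, Pdpn and Sparc were 0.035, 0.12, 0.25, 0.013 and 0.079 at 10 mpk, and Thy1 was 0.092 at 30 mpk. With them, these 10 mpk values were -0.25, -0.08, -0.04, -0.76 and -0.30, and Thy1 at 30 mpk was -0.21. On leaving out 1 mouse, Thy1 ran from -0.14 to 0.099 at 10 mpk and Fap from -0.011 to 0.093 at 90 mpk. Sham mice were left out in turn only in the comparison with vehicle.

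Deviations of same-numbered mice of 2 groups had correlations from -0.28 to 0.50. Of 10 such pairs, 0 (sham and 90 mpk) to 6 (vehicle and 10 mpk) exceeded 0.1. Differently numbered mice were not compared, so this cannot decide whether the numbers pair mice. The main tests did not treat them as pairs. With the replicate block, beside the 10 mpk count (0, with Pdpn at an adjusted p of 0.0616 and Tnc at 0.0777), Fap lost its call at 10 mpk against sham (0.0643), and no other call changed.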
